A study of Mus musculus with 6 samples.

Results

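The respiratory chain genes described here are 88 nuclear genes, of 33696 genes counted, with symbols of subunits of the 5 complexes of oxidative phosphorylation. They were taken by symbol alone, as the names that start with Nduf, Sdha to Sdhd, Uqcr, Cox4 to Cox8 or Atp5. Names that end in -ps (pseudogenes) or contain af (assembly factors) were left out, and gene type was not checked. Of them 39 belong to complex I, 4 to complex II, 8 to complex III, 20 to complex IV and 17 to complex V, with Ndufa4 and Ndufa4l2 placed in complex IV. The cells came from the kidneys of male C57BL/6 mice bought at 8 to 10 weeks of age, 3 Sham and 3 DOCA-salt, with 1 library per mouse. The DOCA-salt mice had the left kidney removed and then carried a pellet of 50 mg deoxycorticosterone acetate (DOCA), a mineralocorticoid, and drank 1% NaCl for 21 days. The Sham mice had sham surgery, normal water and no pellet. Nephrectomy, DOCA and salt therefore cannot be told apart.

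Complexes I and II pass electrons from NADH and succinate to ubiquinone, complex III passes them on to cytochrome c, and complex IV reduces oxygen. Complexes I, III and IV pump protons across the inner mitochondrial membrane, and complex V, the ATP synthase, uses that gradient to make ATP. A small set of subunits is encoded by mitochondrial DNA and the rest by the nucleus. The members are the nuclear genes that the symbol rule catches, so Cyc1, listed here with the electron carriers, is not among them. Tubule segments that move much salt, such as the proximal tubule and the thick ascending limb, are rich in mitochondria, and several subunits of complex IV exist as paralogs used in different cell types.

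The libraries held between 93172739 and 137819127 unique molecular identifiers (UMIs, each standing for 1 captured transcript), and 55630 of 76774 barcodes were kept as cells after filters and doublet removal. Any pair of libraries shared 33 to 69 barcodes. Cells were clustered and named from markers, and UMIs were summed per mouse in 8 cell types. The 6 libraries were split into 2 sets by the main axis of their deviations from their group means, computed without the members. The labels do not explain the sets: Sham 1, Sham 3 and DOCA-salt 2 (set A), and Sham 2, DOCA-salt 1 and DOCA-salt 3 (set B). As deviations from a mean cancel out, each group had to split into 2 libraries and 1. This axis took 40.0% to 54.3% of the deviation across the cell types. Sham 2 was the only Sham library in set B. Its weight on the axis was 0.56 in the proximal tubule and 0.78 in macrophages. The weights of DOCA-salt 1, 2 and 3 were 0.36, -0.58 and 0.22 in the proximal tubule and 0.08, -0.14 and 0.06 in macrophages. The members moved with these sets: their median in Sham 2 was below that in Sham 1 and Sham 3 in all 8 cell types, by -0.35 (proximal tubule) to -0.71 (endothelial cells) on the log2 scale. The changes of the members are therefore also given with the library set as a term in the model, a setting chosen after seeing the data, and so are the counts of the other gene lists called. The shares of all genes called with that term are mostly over the genes that defined the sets. As the sets were drawn from the spread of these same libraries, the term takes up part of that spread. Its SEs and adjusted p-values can therefore be too small, and calls made with it are descriptions. The median SE of the members in the proximal tubule was 0.15 without the term and 0.10 with it. Whether the sets came from handling of the cells or from the animals was not tested.

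In cells of a tubule segment the members made up several percent of all UMIs. In the proximal tubule, which reabsorbs most of the filtrate, the share was 4.42%, 3.75% and 4.26% in Sham 1, 2 and 3 and 3.88%, 4.04% and 3.77% in DOCA-salt 1, 2 and 3. The lowest value was that of Sham 2, and the groups overlapped. In the thick ascending limb, the salt-reabsorbing segment of the loop of Henle, the share was 4.49% ± 0.48 (SD, n = 3) in Sham and 4.60% ± 0.39 (n = 3) in DOCA-salt, and in intercalated cells, the acid- and base-secreting cells of the collecting duct, it was 4.41% ± 0.32 and 4.47% ± 0.33. Macrophages had 1.5% ± 0.18 in Sham and 1.38% ± 0.079 in DOCA-salt, and endothelial cells 1.53% ± 0.29 and 1.34% ± 0.083. The Sham and DOCA-salt mice overlapped in the share of every one of the 8 types. By the mean level across mice, 33 members had their highest level among the 8 types in the thick ascending limb, 24 in intercalated cells and 16 in the proximal tubule, against 6 in the distal convoluted and connecting tubule, 4 in principal cells, 2 each in the thin limb and endothelial cells, and 0 in macrophages. The counts include members near 0, with Cox7b2 and Cox8b under intercalated cells and Cox8c under principal cells. Those of endothelial cells are Cox4i2 and Ndufa4l2, at 4.28 and 6.48 CPM, which were higher in smooth muscle cells and pericytes, outside the 8 types. Ndufb11b, with 0 UMIs, is not counted. These orders are descriptions of shares of RNA, and fewer transcripts of a member cannot be told apart from more transcripts of other genes.

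**Figure D1:**
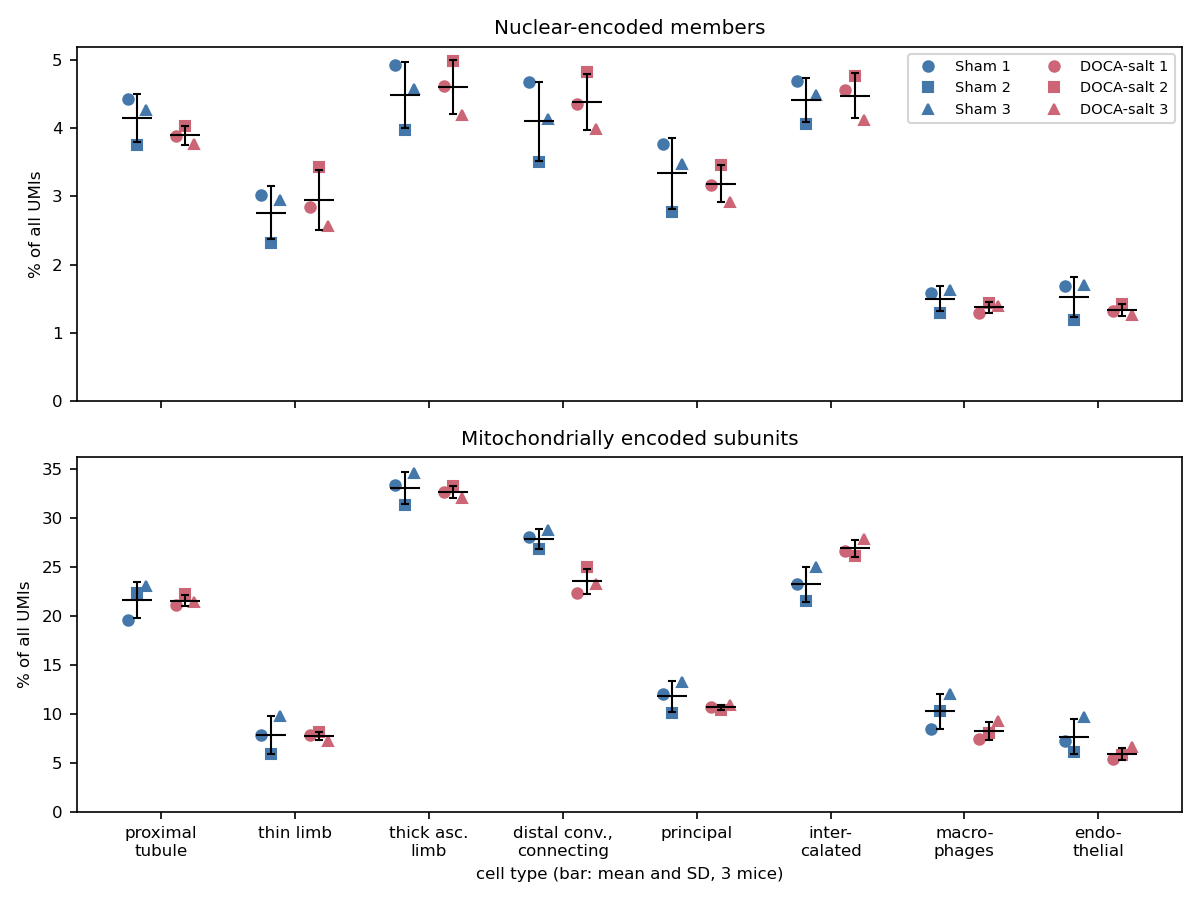
Share of UMIs (%) from the 88 members and from the 13 subunits encoded by mitochondrial DNA, per mouse, in 8 cell types, with Sham and DOCA-salt mice as separate points. The members' shares of the groups overlap in every type, while the mitochondrially encoded share of the distal convoluted and connecting tubule lies at 26.8% or above in Sham and at 24.97% or below in DOCA-salt.

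The comparison of DOCA-salt with Sham asked which members changed in which cell type. Levels are CPM, the UMIs of a gene as a share of all UMIs of that mouse and type on the usual CPM scale. Levels given with a fitted change carry TMM scaling. Levels pooled over mice, within single clusters, in fibroblasts or of marker sets, and the mean levels that rank the types, do not. Changes are log2 of DOCA-salt over Sham. A gene was called where edgeR's quasi-likelihood test gave an adjusted p below 0.05 over all genes of that cell type. Enough UMIs for the test were present for 78 members in all 8 types and for 6 (Cox4i2, Cox6a2, Cox6b2, Cox7a1, Ndufa4l2 and Ndufb4b) in some. Cox7b2, Cox8b, Cox8c and Ndufb11b were tested in none and had 19, 7, 3 and 0 UMIs over the 8 types. With 483819784 UMIs in all named types, a count of 0 allows up to 0.0062 CPM, a limit that covers counting error only. In 7 of the 8 types 0 members were called, and in the proximal tubule 1 of 84 was.

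The members of the proximal tubule were mostly lower in DOCA-salt, by amounts that singly did not pass the test. The change was negative for 75 of 84 members, with a median of -0.23, beside a median of -0.00 over all genes tested. By complex, it was negative for 38 of 38 members of complex I (median -0.24), 4 of 4 of complex II (-0.24), 7 of 8 of complex III (-0.27), 16 of 17 of complex V (-0.23) and 10 of 17 of complex IV (-0.08). A single member was called higher and 0 lower, where 9.66% of all genes tested were called (6.62% higher and 3.04% lower). Before adjustment, 18 members (21.4%) were lower with p below 0.05 against 12% of all genes, and 2 were higher against 16.1%. With DESeq2 in place of edgeR, 13 were called lower against 6.84% of all genes and 1 higher against 9.81%. The groups did not overlap, with DOCA-salt lower, for 21 members (25%) against 15% of all genes. With the library set as a term, 13 members were called lower (15.5%, against 11.4% of all genes) and 3 higher (3.57%, against 16%). The median over the members was then -0.16. Within the sets it was -0.26 in A and -0.01 in B, where each set has a group of 1 library (DOCA-salt 2 in A and Sham 2 in B). Without Sham 2 the median was -0.33, and 24 members were called lower (28.6%, against 7.45% of all genes) and 1 higher (1.19%, against 6.86%). Markers of the proximal tubule itself were at 37463 ± 3378 CPM in Sham and 27617 ± 6573 in DOCA-salt (SD, n = 3), and the part of this in the members' values was not tested. The proximal tubule class also held a cluster led by C3 that made up 0.75% of its cells in Sham and 5.47% in DOCA-salt, and a cluster of which DOCA-salt 2 gave nearly all cells (11.8% of that mouse's proximal tubule). Both held C3 among their leading genes. Without both clusters, a setting added after seeing the data, the members' median was -0.16. Within single clusters with values for all mice, the members' share overlapped between the groups except in a Pdk4-led one. There it was 3.18%, 2.55% and 3.11% in Sham and 2.44%, 2.46% and 2.24% in DOCA-salt. The largest cluster held 21.2% of the class in Sham and 26.2% in DOCA-salt, and a Kap-led one 20.2% and 14.8%. The part of this makeup in the members' median was not tested.

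**Figure D2:**
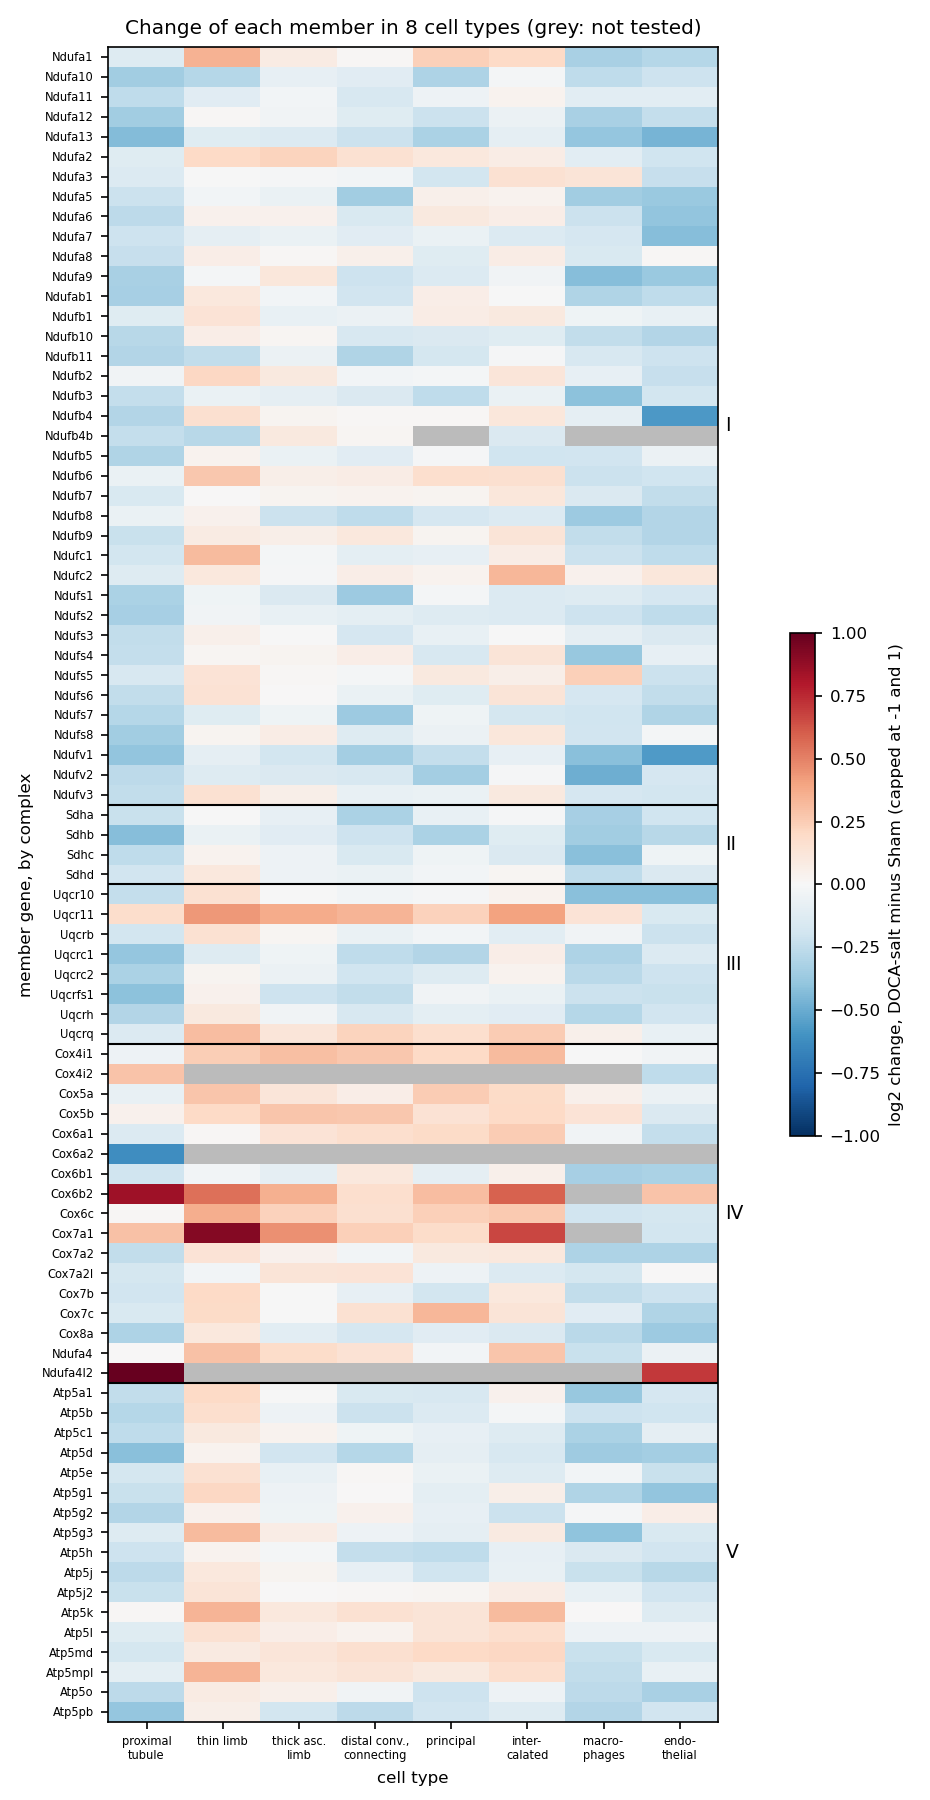
Change (log2 of DOCA-salt over Sham, colour) of each tested member (rows, grouped by complex) in 8 cell types (columns), with grey for members not tested. Proximal tubule, macrophages and endothelial cells are mostly on the negative side, with 75 of 84, 70 of 78 and 76 of 82 members below 0.

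The catalytic subunits of the proximal tubule give this shift at the level of single genes. Ndufs1, the largest iron-sulfur subunit of complex I (chr1:63182058-63216236, minus strand, GRCm39), was at 110.4, 116.8 and 119.9 CPM in Sham and 91.3, 96.3 and 91.9 in DOCA-salt. All 3 DOCA-salt mice lay below all Sham mice, yet the change of -0.31 (SE 0.087) did not pass the test (adjusted p = 0.0599), and with the library set as a term it did (-0.31, adjusted p = 0.016). Ndufs1 was lower in both sets, by -0.26 in set A and -0.35 in set B. Ndufv1, the NADH-binding subunit, was at 241, 183 and 245 CPM in Sham and 175, 164 and 169.9 in DOCA-salt, again without overlap (-0.39, adjusted p = 0.0967, and 0.0611 with the set term). Sdha, the flavin subunit of complex II, was at 270.4, 285 and 292 CPM in Sham and 237, 252 and 234 in DOCA-salt (-0.23, adjusted p = 0.164), and Sdhb, its iron-sulfur subunit, differed by -0.43 (adjusted p = 0.111). The groups did not overlap for either complex II gene, and neither passed with the set term (adjusted p = 0.0723 and 0.0677).

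Uqcrfs1, the Rieske iron-sulfur protein of complex III (chr13:30723448-30729345, minus strand), had the lowest adjusted p among the core subunits of the proximal tubule. It was at 366, 317 and 380.0 CPM in Sham and 276, 269 and 257 in DOCA-salt, a difference of -0.41 (SE 0.11) with adjusted p = 0.0545, and it was called with the set term (-0.37, adjusted p = 0.0179). Uqcrc1, a core protein of the same complex, was at 286, 200.3 and 300.4 CPM in Sham and 192, 216 and 194 in DOCA-salt, and its groups overlapped (-0.39, adjusted p = 0.163). Atp5b, the catalytic beta subunit of ATP synthase, was at 1249, 1295 and 1230 CPM in Sham and 1086, 971 and 1041 in DOCA-salt (-0.28, adjusted p = 0.136), and Atp5a1, the alpha subunit, at 1058, 1156 and 1022 against 967, 865 and 897 (-0.25, adjusted p = 0.199). Neither ATP synthase gene overlapped between the groups, and both were called lower with the set term (-0.32, adjusted p = 0.0278, and -0.29, adjusted p = 0.0392). The other members called lower with that term were Ndufa8, Ndufa12, Ndufab1, Ndufb3, Ndufb5, Ndufb11, Ndufc2, Sdhc and Uqcrc2, with changes between -0.35 and -0.30.

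Complex IV was the complex with the smallest median change in the proximal tubule. Cox4i1, the regulatory subunit 4 (chr8:121391505-121400950, plus strand, overlapping Emc8), was at 1837, 1706 and 1816 CPM in Sham and 1794, 1687 and 1679 in DOCA-salt, a change of -0.05 (SE 0.11, adjusted p = 0.786). Cox5a differed by -0.08 (adjusted p = 0.853) and was at 1904 CPM in Sham 2 against 1274 and 1279 in Sham 1 and 3. Ndufa4, counted in this complex, was at 1854, 3174 and 1789 CPM in Sham and 2657, 1659 and 2529 in DOCA-salt. Its 3 high values were those of the 3 libraries of set B, in both groups, and its change was 0.01 (SE 0.27).

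Cox6b2 was the member called higher in the proximal tubule (chr7:4754789-4756093, minus strand). It encodes an isoform of subunit 6b of complex IV that is best known from testis, and Cox6b1 encodes the widely used form. Cox6b2 was at 12.6, 16.8 and 12.2 CPM in Sham and 22.9, 27.0 and 24.9 in DOCA-salt. All DOCA-salt mice lay above all Sham mice, and Cox6b2 rose by 0.85 (SE 0.14, adjusted p = 0.0145). It was also called with the set term (0.81, adjusted p = 0.0033), with a change of 1.12 in set A and 0.51 in set B. Leaving out Sham 1, Sham 3 or DOCA-salt 3 ended the call (adjusted p = 0.0651, 0.0536 and 0.0612). Without the clusters that held C3 among their leading genes the change was 0.98 (adjusted p = 0.0093). Within the proximal tubule, DOCA-salt mice were higher without overlap in 6 clusters, such as the largest one, with 25.5, 27.4 and 18.4 CPM in Sham and 37.6, 38.2 and 37.0 in DOCA-salt. In the cluster led by C3 the groups overlapped, with 12.3, 21.0 and 5.84 CPM in Sham and 21.6, 15.1 and 11.3 in DOCA-salt. The remaining clusters lacked values for most or all Sham mice and were not compared. Cox6b1 was at 1006, 639 and 1110 CPM in Sham and 730.1, 910.0 and 758 in DOCA-salt, so its groups overlapped (-0.20, SE 0.21, adjusted p = 0.576).

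Cox6b2 was higher in other cell classes of these kidneys than in the proximal tubule. Pooled over the mice it was at 75.2 CPM in fibroblasts, 74.1 in cycling cells and 43.7 in a cluster led by Ncam1 and Wt1, beside 19.9 in the proximal tubule. Of its fibroblast UMIs, 10 came from Sham and 774 from DOCA-salt mice, which also gave many more fibroblasts. There were 23, 4 and 10 fibroblasts in Sham 1, 2 and 3 and 216, 297 and 311 in DOCA-salt 1, 2 and 3. The level of Cox6b2 in them was 67.2 ± 55.3 CPM in Sham and 75.9 ± 1.53 in DOCA-salt (SD, n = 3). The summed level of 7 fibroblast markers in the proximal tubule class was 0.495 to 2.39 CPM in Sham and 12.3 to 61.0 in DOCA-salt, against 6542 to 25395 CPM in fibroblasts themselves, and 1 of the 7 was at 0 in Sham 2. Cycling-cell markers were at 3.90 to 5.93 CPM in Sham and 6.19 to 10.6 in DOCA-salt in the proximal tubule, against 804 to 1797 in cycling cells. The Ncam1- and Wt1-led cluster had scored highest for podocyte markers, but none of them was among its 10 leading genes, and it is called by these genes. Some clusters kept in the proximal tubule and macrophage classes also had no marker of their class among their 10 leading genes. The 6 podocyte markers were at 79.8 to 94.2 CPM in Sham and 109 to 125 in DOCA-salt in the proximal tubule, without overlap. There 1 of the 6 was at 0 in Sham 2 and in DOCA-salt 3. In the Ncam1- and Wt1-led cluster they were at 165 to 962 CPM. The part of these cells in the Cox6b2 change was not tested. In intercalated cells Cox6b2 was at 10.1, 12.6 and 12.6 CPM in Sham and 16.7, 16.7 and 19.7 in DOCA-salt, without overlap (0.59, SE 0.18, adjusted p = 0.0815). In the thick ascending limb it was at 9.43, 11.4 and 11.4 CPM against 14.01, 13.1 and 13.9 (0.35, adjusted p = 0.437), also without overlap.

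The sequences before the transcription starts of Cox6b1, Cox6b2, Uqcr11 and Cox7a1 are given for comparison of their letters. Of these 4 members only Cox6b2 was called in the fit without the set term. The sequences are from GRCm39 with starts of GENCODE vM39, 5′ to 3′ on the gene's strand. Capitals mark CCAAT, found as ATTGG on the other strand, in Cox6b1, Cox6b2 and Cox7a1, and the ETS core CCGGAAG in Uqcr11. They cover 250 bases, except for Cox6b2, where 131 bases free of annotated exons are shown.
Cox6b1, chr7:30325617-30325866, strand -: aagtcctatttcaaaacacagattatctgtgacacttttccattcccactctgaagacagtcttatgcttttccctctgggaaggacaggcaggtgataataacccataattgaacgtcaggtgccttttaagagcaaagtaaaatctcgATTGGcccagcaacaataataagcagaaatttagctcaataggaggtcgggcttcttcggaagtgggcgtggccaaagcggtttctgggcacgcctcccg
Cox6b2, chr7:4756094-4756224, strand -: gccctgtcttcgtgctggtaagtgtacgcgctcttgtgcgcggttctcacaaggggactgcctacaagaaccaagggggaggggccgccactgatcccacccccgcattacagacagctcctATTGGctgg
Uqcr11, chr10:80242677-80242926, strand -: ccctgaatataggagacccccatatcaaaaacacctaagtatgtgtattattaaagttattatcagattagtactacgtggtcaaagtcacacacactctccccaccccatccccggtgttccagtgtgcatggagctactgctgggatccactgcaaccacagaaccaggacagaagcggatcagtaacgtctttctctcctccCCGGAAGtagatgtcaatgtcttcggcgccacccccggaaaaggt
Cox7a1, chr7:29883319-29883568, strand +: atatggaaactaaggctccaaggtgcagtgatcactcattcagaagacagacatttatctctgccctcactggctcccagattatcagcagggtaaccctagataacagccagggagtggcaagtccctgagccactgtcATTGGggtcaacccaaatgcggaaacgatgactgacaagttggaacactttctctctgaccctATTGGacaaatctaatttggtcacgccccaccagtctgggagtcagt
The 2 subunit 6b paralogs thus both held CCAAT, as did Cox7a1. Over the 250 bases before the start, searched on both strands, CCAAT was present in 28 of 87 member promoters (32.2%). Among all 21431 promoters of protein-coding genes it was present in 36.6%. The NRF1 core GCATGCGC was in 6 member promoters (6.90%) against 2.66% of all, the ETS core in 6 (6.90%) against 6.82%, the GC box GGGCGG in 27 (31.0%) against 36.3% and TATAAA in 10 (11.5%) against 11.9%. The ERR element CAAGGTCA was in 1 (1.15%) against 1.38%, and the YY1 core AAGATGGC in 0 against 1.33%. A match of letters is a description and not a binding site.

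In the segments beyond the proximal tubule the median change of the members depended on the libraries and on the set term. Without that term it was 0.09 in the thin limb (20 of 81 members negative), -0.00 in the thick ascending limb (42 of 81), -0.07 in the distal convoluted and connecting tubule (50 of 81, beside a median of -0.02 over all genes), -0.06 in principal cells (52 of 80) and 0.04 in intercalated cells (35 of 81). Of all genes tested, 0.82% were called in the thin limb, 1.6% in the thick ascending limb, 15.6% in the distal convoluted and connecting tubule, 7.29% in principal cells and 6.15% in intercalated cells, against 0 members in each. Before adjustment, 4 members of the thin limb were higher with p below 0.05 (6% of all genes) and 0 lower (5.04%), and in the thick ascending limb 1 was higher (5.77%) and 0 lower (6.67%). In the distal convoluted and connecting tubule 1 was higher (13.7%) and 4 lower (14.2%), in principal cells 0 were either (11.3% and 10.6%), and in intercalated cells 4 were higher (10.5%) and 0 lower (10.3%). These shares of members were below those of all genes. DESeq2 called 1 member higher in intercalated cells (3% of all genes). Scaling by library size alone moved the median over all genes of the distal convoluted and connecting tubule to 0.10 and that of the members to 0.06, with 28 of 81 negative, so the sign of their median there depends on the scaling. Relative to all genes the members' median was -0.04 under both scalings. Distal classes changed in makeup: Slc12a3- and Trpm6-led cells were 54.8% of the distal convoluted and connecting class in Sham and 77.8% in DOCA-salt, and Slc26a4-led cells were 61.4% and 47.5% of intercalated cells.

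With the library set as a term, members were called higher in each of these segments and 0 lower. These calls carry the limit given above, that the term takes up spread of the same libraries. The counts were 12 of 82 in the thin limb (14.6%, against 1.89% of all genes), 7 of 81 in the thick ascending limb (8.64%, against 2.43%), 13 of 81 in the distal convoluted and connecting tubule (16.0%, against 12.3%), 4 of 80 in principal cells (5.0%, against 6.89%) and 10 of 81 in intercalated cells (12.3%, against 7.27%). Of all genes, 0.98%, 2.54%, 10.9%, 5.44% and 7.12% were called lower in these types. The share of higher members thus lay above that of all genes in 4 of the 5 segments. The medians with the term were 0.23 in the thin limb, 0.16 in the thick ascending limb, 0.07 in the distal convoluted and connecting tubule, 0.09 in principal cells and 0.14 in intercalated cells. Without the term, leaving out 1 mouse turned the sign of the median in all 5: it ranged from -0.08 to 0.19, from -0.12 to 0.09, from -0.21 to 0.07, from -0.18 to 0.06 and from -0.07 to 0.11 in the same order. Without Sham 2, 8 members were called lower in the distal convoluted and connecting tubule (9.88%, against 9.4% of all genes) and 3 in principal cells (3.75%, against 4.57%), and 3 were called higher in intercalated cells (3.7%, against 5.31%). Within set A the medians of the 5 segments were between -0.06 and 0.20, and within set B, where Sham 2 is the only Sham library, between 0.19 and 0.27. Complex IV had the highest median of the 5 complexes in each of these segments in the fit without the term: 0.20 in the thin limb, 0.13 in the thick ascending limb, 0.15 in the distal convoluted and connecting tubule, 0.17 in principal cells and 0.20 in intercalated cells.

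**Figure D3:**
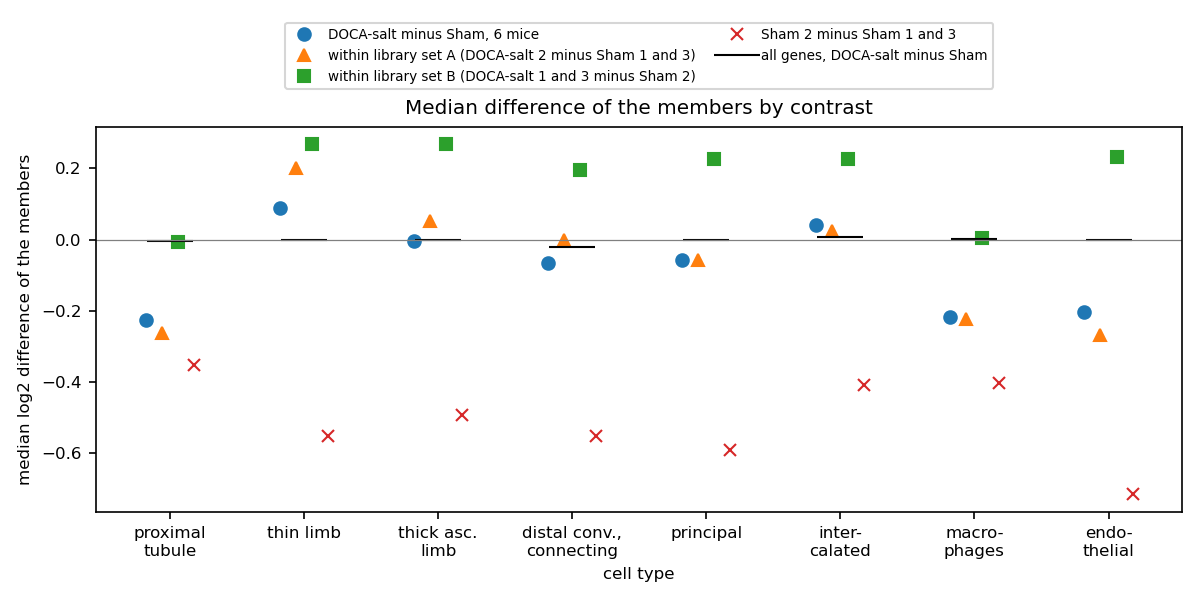
Median log2 difference over the tested members in each of 8 cell types, for DOCA-salt minus Sham, the same within set A and within set B, Sham 2 minus Sham 1 and 3, and DOCA-salt minus Sham over all genes tested. The difference of Sham 2 from the other Sham mice, -0.35 to -0.71, is larger than that between the groups, -0.23 to 0.09.

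Uqcr11, a small accessory subunit of complex III (chr10:80236542-80242676, minus strand, with 3300002P09Rik antisense to it), was singled out after its values were seen. In intercalated cells it was at 655, 584 and 618 CPM in Sham and 870.4, 818 and 769.9 in DOCA-salt, without overlap (0.41, SE 0.12, adjusted p = 0.0786). In the thick ascending limb it was at 619, 507 and 574 CPM against 727, 779 and 696 (0.37, SE 0.13, adjusted p = 0.21), and in the thin limb at 384, 298.0 and 354 against 478, 531 and 389 (0.44, SE 0.15, adjusted p = 0.298). DOCA-salt lay above Sham in these 3 types, in the proximal tubule (0.17, adjusted p = 0.298) and in principal cells (0.23, adjusted p = 0.389). In the distal convoluted and connecting tubule it was at 661, 497 and 544 CPM against 700.0, 805 and 653, with overlap (0.34, adjusted p = 0.157). With the set term it was called higher in the thin limb (0.54, adjusted p = 0.018), the thick ascending limb (0.44, 0.0102), the distal convoluted and connecting tubule (0.43, 0.00671) and intercalated cells (0.42, 0.00974). Its change was 0.14 in macrophages and -0.15 in endothelial cells, both with overlap.

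Cox7a1, the isoform of subunit 7a known from heart and skeletal muscle (chr7:29883569-29885503, plus strand, with Gm53356 antisense to it), had its highest pooled level in intercalated cells, at 92.5 CPM, followed by 44.3 in principal cells and 40.9 in the thin limb. In intercalated cells it was at 79.0, 50.5 and 83.4 CPM in Sham and 107.9, 148 and 82.5 in DOCA-salt. The groups overlapped, and the change of 0.67 (SE 0.22) had adjusted p = 0.108. Within the sets the change was 0.86 in A and 0.90 in B, and with the set term it was 0.89 (adjusted p = 6.8e-05). With that term it was also called higher in the thin limb (1.25, adjusted p = 0.0035), the thick ascending limb (0.82, 0.001), the distal convoluted and connecting tubule (0.49, 0.0238) and the proximal tubule (0.55, 0.0078), though not without it. The paralogs Cox7a2 and Cox7a2l, which serve in most tissues and in supercomplex assembly, changed by 0.11 and -0.14 in intercalated cells, with overlap.

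**Figure D4:**
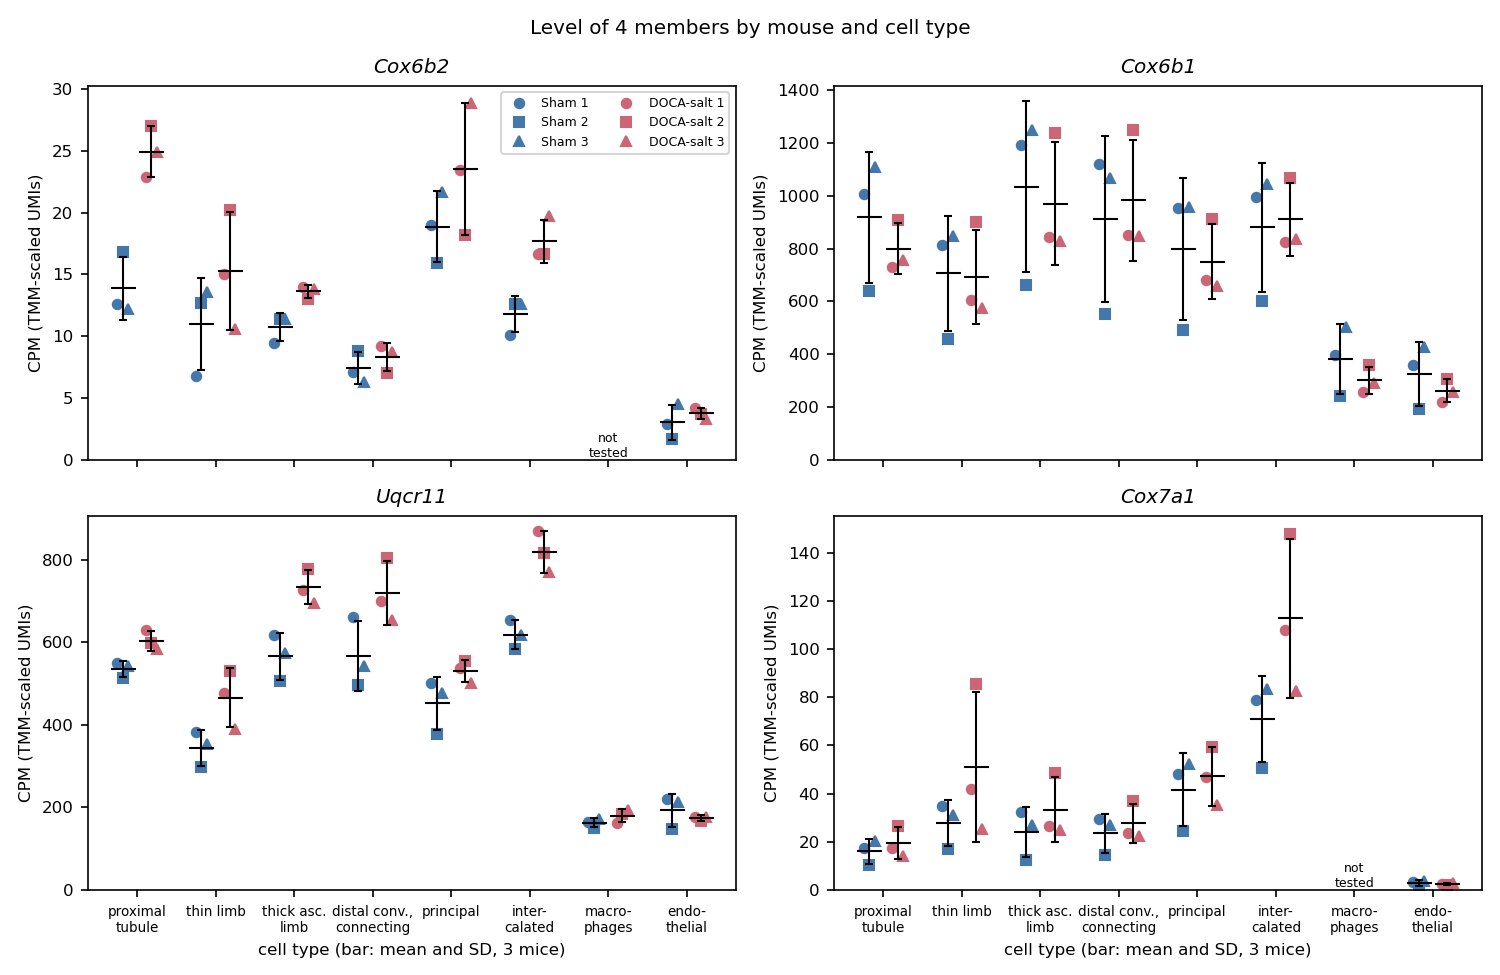
Level (CPM, 1 point per mouse) of Cox6b2, Cox6b1, Uqcr11 and Cox7a1 in 8 cell types, for Sham and DOCA-salt mice. Cox6b2 in the proximal tubule is 12.2 to 16.8 CPM in Sham and 22.9 to 27.0 in DOCA-salt, and Cox6b1 of the same cells overlaps between the groups.

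Among the other core subunits of the distal segments, Cox4i1 was higher in DOCA-salt without passing the test. In the thick ascending limb it was at 2136, 1621 and 2078 CPM in Sham and 2478, 2486 and 2214 in DOCA-salt (0.30, adjusted p = 0.446), and in intercalated cells at 1853, 1576 and 1776 against 2316, 2149 and 2011 (0.32, adjusted p = 0.211). The groups did not overlap in either type, and with the set term Cox4i1 was called higher in both (adjusted p = 0.0391 and 0.0463) and in the distal convoluted and connecting tubule (0.0145). The 2 central ATP synthase genes moved little there: Atp5a1 changed by -0.00 in the thick ascending limb and 0.04 in intercalated cells, and Atp5b by -0.05 and -0.02. Among the small subunits, Atp5mpl was called higher with the set term in all 5 segments, by 0.39 to 0.66, and Atp5k in 4 of them, by 0.34 to 0.56.

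In macrophages and endothelial cells the members were mostly lower in DOCA-salt, and the number called turned on Sham 2. With all mice 0 were called in either type. Without Sham 2, 41 of 83 members were called lower in endothelial cells (49.4%, against 8.47% of all genes, median -0.40) and 4 of 80 in macrophages (5%, against 2.63%, median -0.31). The medians with the set term were -0.07 and -0.14. With all mice, in macrophages the change was negative for 70 of 78 members (median -0.22), where 4.96% of all genes were called. Before adjustment 7 members were lower with p below 0.05 (8.97%, against 9.41% of all genes) and 0 higher (8.62%). The groups did not overlap, with DOCA-salt lower, for 13 members (16.7%, against 11.2%). In endothelial cells the change was negative for 76 of 82 (median -0.20), where 11% of all genes were called, with 3 members lower before adjustment (3.66%, against 11.5%) and 0 higher (13%), and DESeq2 called 1 lower (4.66% of all genes). There the groups did not overlap, with DOCA-salt lower, for 6 members (7.32%, against 12.8% of all genes). The median within sets was -0.22 (A) and 0.00 (B) in macrophages and -0.27 and 0.23 in endothelial cells, so its sign in endothelial cells differed between the sets.

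Atp5a1 of macrophages was at 408, 372 and 384 CPM in Sham and 293, 274 and 328 in DOCA-salt, without overlap (-0.38, SE 0.14, adjusted p = 0.145). Sdha was at 129, 101 and 112 CPM against 87.9, 89.9 and 95.1 (-0.33, adjusted p = 0.257), also without overlap. Ndufv1 of endothelial cells was at 109, 63.5 and 104 CPM in Sham and 59.7, 63.0 and 64.5 in DOCA-salt (-0.56, SE 0.18, adjusted p = 0.0685). Here Sham 2 lay with the DOCA-salt mice, and the change was -0.75 in set A and -0.03 in set B. With the set term Atp5g3 (-0.53, adjusted p = 0.025) and Ndufa4 (-0.47, 0.0186) were called lower in macrophages (4.18% of all genes, and 4.06% higher with 0 members), and Ndufb4 (-0.49, 0.0487) in endothelial cells (6.6%, and 9.12% higher with 0 members). Ndufb4 shares 13.4% of its 30-base words with Ndufb4b, which makes its count less certain. Proximal tubule markers, which both types should lack, were at 4288 to 5705 CPM in Sham and 1905 to 3417 in DOCA-salt in macrophages, and at 2127 to 4133 and 913 to 2069 in endothelial cells. In the segments beyond the proximal tubule their means were also lower in DOCA-salt, with overlap between the groups in each. They were 2451 CPM in Sham and 1216 in DOCA-salt in the thin limb and 2562 and 1272 in the thick ascending limb. In the distal convoluted and connecting tubule they were 2724 and 1291, in principal cells 2439 and 1214 and in intercalated cells 1854 and 1026. The part of this foreign RNA in the members' values of any of these types was not tested. The makeup of both types also changed: Ccl4-, Ccl3- and Mmp13-led cells were 54.2% of Sham and 2.39% of DOCA-salt macrophages, and Plvap-led cells were 53.1% and 70.1% of endothelial cells.

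Whether the change differed between cell types was tested with the sums of 2 types fitted together, each mouse being a block. Between the proximal tubule and the thick ascending limb, the change was more negative in the proximal tubule for 80 of 84 members, with a median difference of -0.22, beside 0.04 over all genes. The difference passed the test for 1 member, Ndufa9, where 4.32% of all genes did. Ndufa9, an accessory subunit of complex I (chr6:126798684-126826117, minus strand, with 1700018A23Rik antisense to it), was at 168, 108 and 166 CPM in Sham and 118, 129 and 107 in DOCA-salt in the proximal tubule, and at 178, 101 and 169.9 against 154, 184 and 148 in the thick ascending limb. Sham 2 was the lowest Sham mouse in both types, and neither change passed alone (-0.32 and 0.11). The difference between them was -0.44 (SE 0.11, adjusted p = 0.0396), and -0.49 with the set term (adjusted p = 0.00487). The Ndufa9 difference passed in 11 of 19 alternative settings, with adjusted p from 0.00248 to 0.37. With the set term the difference was called for 19 members, with 10.3% of all genes called.

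Between macrophages and endothelial cells the difference passed for 1 member, Ndufs5, where 5.63% of all genes did. Ndufs5, an accessory subunit of complex I (chr4:123606481-123612002, minus strand), was at 84.9, 64.7 and 97.4 CPM in Sham and 99.8, 103 and 87.7 in DOCA-salt in macrophages, and at 157, 119 and 154 against 129.9, 127 and 114 in endothelial cells. The groups overlapped in both types, and the changes fitted within each type were 0.24 and -0.22. The joint fit gave a difference of 0.59 (SE 0.16, adjusted p = 0.0225), on a scale where the median over all genes was itself 0.13. With DESeq2 size factors in the joint fit the difference was 0.46 and did not pass (adjusted p = 0.0978). It passed in 8 of 19 alternative settings (adjusted p from 0.0173 to 0.799). Between the proximal tubule and macrophages, and between it and endothelial cells, 0 members passed (5.99% and 8.46% of all genes), with 2 and 3 at an unadjusted p under 0.05 and 0 with DESeq2 in both. The shares of all genes at an unadjusted p or with DESeq2 were not taken for these differences.

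The paralogs differed from their widely used forms mainly in where they were found. Cox4i2, the isoform of subunit 4 linked to oxygen sensing, was at 252 CPM in smooth muscle cells and pericytes and at 4.02 CPM, 1.60% of that, in endothelial cells, the next class. Ndufa4l2, a paralog of Ndufa4 known as a target of hypoxia signalling, was at 525 CPM in smooth muscle cells and pericytes, 114 in fibroblasts and 6.75 in endothelial cells. Cox6a2, the muscle isoform of subunit 6a, had a pooled level of 17.0 CPM in the dendritic cell class, from 48 UMIs and with some mice at 0. It was among the leading genes of a cluster of 8 cells in that class, led also by Siglech and Ccr9, which came from 3 of the 6 mice. Cox4i1 ranged less, with its highest level in the thick ascending limb (2191 CPM) and 90.3% of it in the distal convoluted and connecting tubule. Levels of 1 gene are compared here between cell types, with no test. Ndufa4l2 in the proximal tubule was at 0.339, 0.353 and 0.525 CPM in Sham and 0.451, 1.37 and 0.974 in DOCA-salt (1.22, adjusted p = 0.117, and 0.026 with the set term), a level far below that of the pericyte class. Cox6a2 there was at 2.08, 1.95 and 2.87 CPM in Sham and 1.30, 1.61 and 1.57 in DOCA-salt, without overlap (-0.62, SE 0.22, adjusted p = 0.118).

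**Figure D5:**
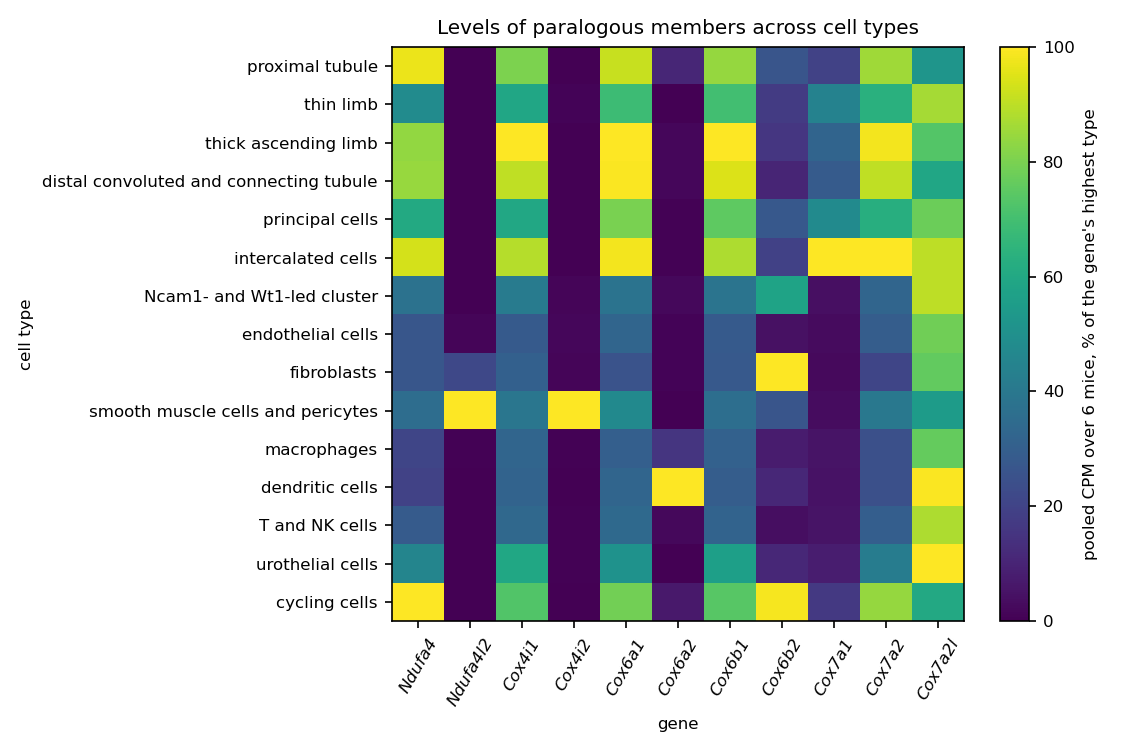
Level of each paralog as a percentage of its highest cell type, from UMIs pooled over the 6 mice in the 15 types with the most UMIs. Cox4i2 and Ndufa4l2 peak in smooth muscle cells and pericytes, Cox7a1 in intercalated cells and Cox6b2 in fibroblasts and cycling cells. The highest type of Cox6a2, dendritic cells, rests on 48 UMIs, while Cox4i1 is spread over the tubule.

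The 13 subunits encoded by mitochondrial DNA had their own pattern across the types. In the distal convoluted and connecting tubule they made up 28.1%, 26.8% and 28.8% of UMIs in Sham and 22.4%, 24.97% and 23.2% in DOCA-salt, and in intercalated cells 23.2%, 21.5% and 25.05% against 26.7%, 26.1% and 27.9%. The groups did not overlap in either type, with opposite directions. These are shares of summed UMIs. The median mitochondrial share per cell overlapped in the distal convoluted and connecting tubule, with 27.8%, 26.1% and 27.9% in Sham and 25.2%, 28.1% and 24.3% in DOCA-salt. In intercalated cells it did not, with 22.3%, 21.6% and 24.1% against 28.3%, 26.8% and 28.0%. The makeup of both classes also changed, as given above, and its part here was not tested. Per gene, 13 of 13 were negative in the distal convoluted and connecting tubule (median -0.39), where mt-Nd5 (-0.65, adjusted p = 0.0224) and mt-Atp8 (-0.68, adjusted p = 0.0317) fell, and 1 of 13 was negative in intercalated cells (median 0.19), with 0 called. In macrophages 13 of 13 were negative (median -0.45) and mt-Nd5 fell (-0.68, adjusted p = 0.0408), and in endothelial cells 13 of 13 were negative (median -0.36) with 0 called. In the proximal tubule 11 of 13 were negative (median -0.17) with 0 called. With the set term 8 were called lower in the distal convoluted and connecting tubule, 5 in macrophages and 1 each in the proximal tubule and principal cells, and 2 higher in intercalated cells and 1 in the thick ascending limb. Of all genes, 10.9%, 4.18%, 11.4% and 5.44% were called lower with that term in the first 4 of these types. In intercalated cells and the thick ascending limb 7.27% and 2.43% were called higher. Mitochondrial transcripts also vary with the state of the cell after digestion, and the filter on them bounds their share. Proximal tubule markers were lower in DOCA-salt in macrophages and endothelial cells, as given above. The part of this foreign RNA in the mitochondrial values was not tested.

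The genes that assemble the complexes were mostly lower in the proximal tubule of DOCA-salt mice as well. Of 54 tested assembly factors 48 were negative there (median -0.22), and 3 were called lower with 0 higher: Sdhaf1, which inserts iron-sulfur clusters into complex II (62.3 ± 12.2 CPM in Sham and 40.8 ± 1.42 in DOCA-salt, SD, n = 3, -0.61, adjusted p = 0.0398), Coa3 for complex IV (-0.39, adjusted p = 0.031) and Uqcc5 for complex III (-0.52, adjusted p = 0.0262). Coa3 also fell in the distal convoluted and connecting tubule (-0.56), where Cmc1 rose (0.52), and Ndufaf4 (0.54) and Cox17 (0.65) rose in principal cells. In the 5 other types 0 assembly factors were called. The fit with the set term called 16 assembly factors lower and 0 higher in the proximal tubule, 1 lower and 4 higher in the distal convoluted and connecting tubule, 1 lower and 7 higher in intercalated cells, and at most 2 in any other type. Of all genes, that term called 11.4% lower and 16% higher in the proximal tubule, where 3.04% were called lower without it. The shares with it were 10.9% and 12.3% in the distal convoluted and connecting tubule and 7.12% and 7.27% in intercalated cells. Of 13 genes of electron carriers and ATP exchange, 12 were negative in the proximal tubule (median -0.28). Without the set term 0 of them were called in any type, and with it 7 were called lower and 1 higher in the proximal tubule and at most 1 in any other type. Of 18 genes of the tricarboxylic acid cycle 15 were negative there (median -0.19), and Pdhx, a subunit of pyruvate dehydrogenase, fell (-0.37, adjusted p = 0.0472). Idh2 fell in endothelial cells (-0.38), and 0 were called in the other 6 types. In the fit with the set term, 10 genes of the cycle were called lower and 0 higher in the proximal tubule, and at most 2 in any other type.

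Among 19 regulators of mitochondrial genes, the coactivator Ppargc1a fell in the distal tubule, in principal cells and in endothelial cells, and did not pass the test in the proximal tubule. It was at 645 ± 28.6 CPM in Sham and 334 ± 17.4 in DOCA-salt in the distal convoluted and connecting tubule (SD, n = 3, -0.95, SE 0.12, adjusted p = 0.000299), and at 367 ± 20.2 and 198 ± 23.6 in principal cells (-0.89, adjusted p = 0.00283). It also fell in endothelial cells (-0.81, adjusted p = 0.032), changed by -0.58 in intercalated cells (adjusted p = 0.0626) and by -0.12 in the proximal tubule (adjusted p = 0.472). Esrrg, a nuclear receptor that works with Ppargc1a, rose in the distal convoluted and connecting tubule (0.54, adjusted p = 0.017), and Esrra, another such receptor, differed by -0.17 in the proximal tubule (adjusted p = 0.46) and -0.58 in macrophages (adjusted p = 0.175). Tfam, which drives transcription of mitochondrial DNA, differed by -0.31 in the proximal tubule (adjusted p = 0.0757). Other regulators called were Nrip1, higher in the proximal tubule, Hif1a, lower in the distal convoluted and connecting tubule (-1.31) and higher in endothelial cells (0.71), and Pparg, lower in endothelial cells (-0.74). In the distal convoluted and connecting tubule 1 of 18 tested regulators was called higher and 2 lower. Of all genes, 15.6% were called there, 7.29% in principal cells, 11% in endothelial cells and 9.66% in the proximal tubule. The makeup of the distal and endothelial classes changed, as given above, and its part in these values was not tested. The counts of regulators with the set term were 2 higher and 4 lower in the proximal tubule, 2 and 2 in the distal convoluted and connecting tubule, 2 and 3 in intercalated cells, 1 and 2 in endothelial cells and 0 and 1 in principal cells. The shares of all genes were 16% higher and 11.4% lower, 12.3% and 10.9%, 7.27% and 7.12%, 9.12% and 6.6%, and 6.89% and 5.44% in the same order.

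Of 15 genes of glycolysis, the pathway that makes ATP without oxygen, 2 rose and 1 fell in the proximal tubule. Hk2, a hexokinase, rose by 3.84 (adjusted p = 0.0042) and Pfkp, a phosphofructokinase, from 5.3 ± 1.1 to 29.4 ± 4.4 CPM (2.48, adjusted p = 0.00142), while Pfkm, its muscle form, fell. Of all genes of the proximal tubule, 6.62% were called higher and 3.04% lower. The makeup of this class changed, with more cells of C3-led clusters in DOCA-salt, and its part in these changes was not tested. The median over the 15 was -0.22, opposite in sign to the changes of Hk2 and Pfkp, and 11 of the 15 were negative. Hk2 also rose in the distal convoluted and connecting tubule (2.28), where Pfkm fell (-0.59), and in principal cells, where Ldha (1.03, adjusted p = 0.00148) and Pgam1 (0.63) rose too. Ldha rose in intercalated cells (0.61) and Pfkp in the thin limb (0.68). In the thick ascending limb, macrophages and endothelial cells 0 of the list were called. Of all genes, 15.6% were called in the distal convoluted and connecting tubule, 7.29% in principal cells, 6.15% in intercalated cells and 0.82% in the thin limb. With the set term 4 were higher and 3 lower in the proximal tubule, 3 and 1 in the distal convoluted and connecting tubule and 8 and 1 in principal cells, and 7 were higher in the thin limb, 4 each in intercalated and endothelial cells and 1 in the thick ascending limb. Of all genes, 16% were higher and 11.4% lower, 12.3% and 10.9%, and 6.89% and 5.44% in the first 3 of these types. In the others 1.89%, 7.27%, 9.12% and 2.43% were higher, in the same order.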

How the data were processed

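Cells of 3 Sham and 3 DOCA-salt kidneys, 1 library per mouse, were measured by droplet sequencing after digestion with collagenase. For each mouse the authors deposited raw UMI counts per gene and barcode, aligned to GRCm39 with Cell Ranger (9.0.0 in the processing notes, 8.0.1 in the file headers). The annotation release is not given in the sources used here. Limits of 170 genes and 500 UMIs from below, and of 50% mitochondrial and 5% hemoglobin UMIs from above, left 60561 barcodes. The highest doublet scores, 0.8% per 1000 barcodes, were removed (4931). With scanpy 1.11.5, 2000 variable genes, 30 principal components and 15 neighbors gave 48 Leiden clusters (resolution 1), named from fixed markers. A single cluster, with 9.21% of the cells, stayed unnamed and was not used. Another, led by Ncam1 and Wt1, had no podocyte marker among its leading genes and is called by these genes. This was not asked of the other classes. The Pdk4-led and C3-led clusters of the proximal tubule and the Ccl4-, Ccl3- and Mmp13-led cluster of macrophages had no marker of their class there either, and kept their names.

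Sums of UMIs over the cells of 1 type in 1 mouse were the unit of every test. The groups were compared with edgeR 4.0.16 (R 4.3.3): low-count filter, TMM, quasi-likelihood F test, Benjamini-Hochberg adjustment over all genes tested in that type, threshold 0.05. The SE is the log2 change over the square root of F. Differences between types used an interaction with the mouse as a block. The test was checked on simulated counts, with changes far larger than the members' medians and with each gene drawn on its own. The check therefore does not cover changes of the members' size or shifts that genes share. Each mouse is 1 sample, so p-values measure the spread between 3 and 3 mice. Named genes followed a rule: members past the threshold with at least 20 CPM, a fixed set of core subunits, the paralogs, members whose change differed between types, and, of the other lists, mitochondrial subunits, Ppargc1a, Esrra, Esrrg and Tfam. Uqcr11, the subunits called only with the library set as a term, and the list genes called were added after their values were seen. The members and lists were chosen with earlier results of these data known. Alternatives were DESeq2 1.42.0, other scalings and filters, each mouse left out in turn, a block for the mouse number, other cell filters and clusterings, and, added after seeing the data, the library set as a term and the proximal tubule without its C3-led clusters. Promoters and positions came from GRCm39 with GENCODE vM39. Of the 88 members, 72 had the same symbol there and 16 another, 15 overlapped another gene on the same strand and 59 one on the opposite strand.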

Additional observations from a re-analysis of the deposited data

Results flagged for a closer look

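For 2 members the change from Sham to DOCA-salt differed between cell types by the test of the difference itself. For Ndufa9, the change in the proximal tubule minus that in the thick ascending limb was -0.438799 on the log2 scale, as the change was -0.32 in the former and 0.11 in the latter. For Ndufs5, the change in macrophages minus that in endothelial cells was 0.590797 in the joint fit of both types. The changes fitted within each type were 0.24 and -0.22, and the joint scale placed the median over all genes at 0.13. Neither gene was called within any of these types alone. Each was the only member to pass for its pair, of 84 and 83 tested, where 4.32% and 5.63% of all genes passed. The differences passed in 11 and 8 of 19 alternative settings, with adjusted p up to 0.37 and 0.799.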

How the results depend on the processing

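With the library set as a term, a choice made after seeing the data, the number of members called was 16 in the proximal tubule, 12 in the thin limb, 7 in the thick ascending limb, 13 in the distal convoluted and connecting tubule, 4 in principal cells, 10 in intercalated cells, 2 in macrophages and 1 in endothelial cells, against 1 in the proximal tubule and 0 elsewhere without it. For differences between types it was 19 (proximal tubule and thick ascending limb), 1 (proximal tubule and macrophages) and 2 (proximal tubule and endothelial cells), against 1, 0 and 0. With the term 10.3% of all genes were called for the first of these pairs. For the other pairs no such share is given, so their counts cannot be set against it. With DESeq2 the counts were 14 in the proximal tubule, 1 in intercalated cells, 1 in endothelial cells, 2 for proximal tubule and thick ascending limb and 0 for macrophages and endothelial cells, where 1 was called otherwise. With DESeq2 size factors they were 2 in the proximal tubule, 1 in endothelial cells, 2 for proximal tubule and thick ascending limb and 0 for macrophages and endothelial cells. With mitochondrial UMIs left out they were 1 in endothelial cells, 2 for proximal tubule and thick ascending limb and 0 for macrophages and endothelial cells. Without the filter on low counts they were 1 in the thin limb, 1 in intercalated cells, 3 in endothelial cells and 4 for proximal tubule and thick ascending limb. With library size only, 1 was called in the distal convoluted and connecting tubule. For the scalings and the filter setting no share of all genes called was taken, so those counts cannot be set against it.

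With at most 20% mitochondrial UMIs the counts were 8 in the proximal tubule, 2 in the distal convoluted and connecting tubule, 4, 1 and 2 for the proximal tubule against the thick ascending limb, macrophages and endothelial cells, and 0 for macrophages and endothelial cells. Without doublet removal they were 1 in the distal convoluted and connecting tubule, 1 in intercalated cells and 0 for both differences called otherwise. At Leiden resolution 2 they were 1 in endothelial cells, 2 for proximal tubule and thick ascending limb and 2 for macrophages and endothelial cells. With cells named one by one they were 1 in the distal convoluted and connecting tubule and 0 for both differences. With at least 1000 UMIs per cell 1 was called in endothelial cells, and without clusters from 1 mouse 2 were for proximal tubule and thick ascending limb. For these cell filters and clusterings no share of all genes called was taken, so the counts cannot be set against it. Leaving out 1 mouse at a time gave 0 to 25 in the proximal tubule, 0 to 0 in the thin limb and in the thick ascending limb, 0 to 8 in the distal convoluted and connecting tubule, 0 to 3 in principal cells, 0 to 3 in intercalated cells, 0 to 4 in macrophages and 0 to 41 in endothelial cells. For the 4 differences between types it gave 0 to 1, 0 to 0, 0 to 0 and 0 to 1. Where these counts varied within a type, the highest came without Sham 2: 25 in the proximal tubule (1 higher and 24 lower, against 6.86% and 7.45% of all genes), 41 lower in endothelial cells (8.47%), 8 lower in the distal convoluted and connecting tubule (9.4%), 4 lower in macrophages (2.63%), 3 lower in principal cells (4.57%) and 3 higher in intercalated cells (5.31%). The cause was not tested. Of the values of single members under the alternatives, 3197 of 3289 were graded the same as in the main fit and 0 reversed. Few members passed the threshold in the main fit, so most of these values concern members that were not called. The grades do not show that directions held. Leaving out 1 mouse turned the sign of the members' median in the segments beyond the proximal tubule.

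The mouse numbers do not pair the mice: the correlation of deviations between same-numbered mice was -0.51 to -0.03 over 24 pairs of libraries within a cell type. With the replicate block the counts were 1 in the proximal tubule, where Cox6b2 had an adjusted p of 0.0497, and 0 in the other 7 types. Library size only moved the median of all genes to 0.098 in the proximal tubule and left the members' median at -0.22 relative to it. In the main fit, with 3 mice a group, changes of the size of the members' medians could not be told from the spread between libraries for single genes. The number of members called lower in the proximal tubule depended on the setting. It was 0 in the main fit, 13 with DESeq2 and 7 with at most 20% mitochondrial UMIs.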
